A study of Homo sapiens with 6 samples.

Results

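The epidermal growth factor (EGF) receptor ligands AREG, EREG, HBEGF, TGFA, BTC and NRG1 and the receptors EGFR and ERBB2 were followed in a human melanoma line with and without depletion of STAG2. These 8 genes were found by symbol among the 57820 genes listed for each library, and 0 of the symbols were repeated. They were chosen with the knockdown comparison in view, because AREG lay near 0 in the WT libraries and had a clear level in each KD library, so the values of all 8, and how many of them passed the threshold set for all genes, are a description and are not offered as a test. Of the 8, 7 had enough reads for the fit across 15605 genes and BTC did not. RNA was sequenced from M14, an established human melanoma line. All cells had been given an shRNA against STAG2 that doxycycline switches on, and were kept under puromycin. The 3 KD libraries came from cells given doxycycline for 5 days and the 3 WT libraries from the same cells without it, so WT here is not an unmodified line. The study names 1 such shRNA for these cells, and only KD cells had doxycycline. Effects of the drug itself, of this shRNA beyond STAG2 and of lower STAG2 thus cannot be told apart. The study describes the replicates as biologically independent samples, and the SDs below measure the spread between such samples of 1 cell line. The SE of a log2 fold change comes from the fit across genes and is not a direct measure of that spread.

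EGF family ligands are made as membrane-bound precursors that proteases of the ADAM family cut to release the active peptide. Amphiregulin (AREG), epiregulin (EREG), heparin-binding EGF-like growth factor (HBEGF), transforming growth factor alpha (TGFA) and betacellulin (BTC) bind EGFR, some of them also ERBB4, while neuregulin 1 (NRG1) binds ERBB3 and ERBB4. A bound receptor pairs with another family member, with ERBB2, which has no known ligand, as a favoured partner, and signals through RAS and ERK and through PI3 kinase. In melanoma, often already driven by mutant BRAF or NRAS, signalling through these receptors is known as a route of escape from inhibitors of RAF and MEK.

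AREG has a near-identical copy in the genome build used for counting, which bears on its values. In GRCh37 (hg19), AREG (ENSG00000109321) spans bases 75310853 to 75320722 of chromosome 4 on the plus strand, and the copy, listed as AREGB, spans 75480629 to 75490486 on the same strand. The AREG-201 transcript of 1234 bases and the AREGB transcript of 1239 bases differed at 1 base and by 5 extra bases at the 3′ end of AREGB. The differing base is the substitution G240A (the AREG base first, position counted from 1 at the 5′ end of AREG-201, then the AREGB base). It falls at coding base 30 in exon 1, at position 75311092 in AREG and 75480868 in AREGB. The coding part of exon 1, 61 bases at chr4:75311063-75311123 and chr4:75480839-75480899 of GRCh37, is shown in lower case with the differing base in capitals, because outside the 3′ end this base alone tells reads of the copies apart.
AREG: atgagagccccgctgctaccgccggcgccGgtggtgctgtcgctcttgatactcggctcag
AREGB: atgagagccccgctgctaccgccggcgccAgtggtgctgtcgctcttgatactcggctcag
Of the 1185 windows of 50 bases, the read length, along AREG-201, 1135 (95.8%) were also in AREGB and 50 (4.22%) were not. RSEM divides reads that match several genes among them by estimate, so the split of a library's reads between AREG and AREGB rests on few reads.

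Library totals ran from 24895998 to 35181733 expected counts, and 3 counts, taken as the floor of detection, stood for 0.0870 to 0.112 CPM by library (CPM are counts relative to the TMM-scaled library size, the unit of all levels below unless a length is named). Floors and counting intervals cover counting error only. STAG2, the targeted cohesin subunit, had 66.5, 34.8 and 28.8 CPM in WT and 16.0, 7.31 and 6.69 CPM in KD. Every KD library lay below every WT library, with a log2 fold change of −2.12 (SE 0.43, edgeR adjusted p = 0.0342). With replicates of the same number treated as pairs, a fit called the replicate block here, the edgeR adjusted p was 0.000104. In the fit without the block, leaving out WT replicate 2 or 3 or KD replicate 2 or 3 put the edgeR adjusted p of STAG2 above 0.05, up to 0.168. Over all tested genes 404 passed an adjusted p under 0.05, or 2.59%, and 1486 passed with the block, or 9.52%. As defining markers of the melanocyte lineage, SOX10, PMEL and TYR were detected in every library, while OCA2 had 0, 1 and 0 counts in KD. The whole marker list, in which PMEL and DCT weigh heavily, summed to 2098 to 6743 CPM in WT and 1357 to 2857 CPM in KD.

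AREG, an EGFR ligand of epithelia and of many tumours, was near absent in WT and clearly present in KD. AREG alone had 2, 0 and 0.09 expected counts in the WT libraries, in the order of replicates 1 to 3, against 260, 300 and 291 in the KD libraries. These are 0.0745, 0 and 0.00328 CPM in WT, all below the floor of 3 counts, and 8.09, 10.2 and 8.91 CPM in KD. The mean was 0.0259 ± 0.0421 CPM in WT against 9.05 ± 1.04 CPM in KD (SD, n = 3 each), and the libraries did not overlap. In RNA from bulk cells, fewer cells with a transcript and less RNA per cell cannot be told apart, here and for the genes that follow.

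The AREGB values changed the size of this difference. AREGB was at 0 in 5 libraries and had 19.91 expected counts in WT replicate 3, where AREG had 0.09. Summed over both copies, the counts were 2, 0 and 20 in WT and 260, 300 and 291 in KD, so WT replicate 3 was the WT library with the most reads of this sequence. The summed level was 0.0745, 0 and 0.728 CPM in WT, with a mean of 0.268 ± 0.401 CPM (SD, n = 3), and the KD levels were those of AREG alone. The libraries still did not overlap, and the lowest KD library was above the highest WT library.

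The fitted log2 fold change was 8.38 (SE 0.91) for AREG alone and 5.09 (SE 1.09) for the sum, and with the replicate block it was 8.44 (SE 0.89) and 5.86 (SE 0.99). With so few WT reads, both depend on how low counts are treated. From the pooled counts scaled by library size, AREG alone was 400-fold higher in KD, with an exact 95% counting interval of 110 to 3311 on 851 and 2 counts. The sum was 36.4-fold higher, with an interval of 23.9 to 58.4 on 851 and 22 counts. The intervals leave out the spread between libraries, and the interval of the sum lies below that of AREG alone. Without WT replicate 3, both log2 fold changes were 7.90, and without WT replicate 1 they were 11.14 for AREG alone and 4.67 for the sum.

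**Figure D1:**
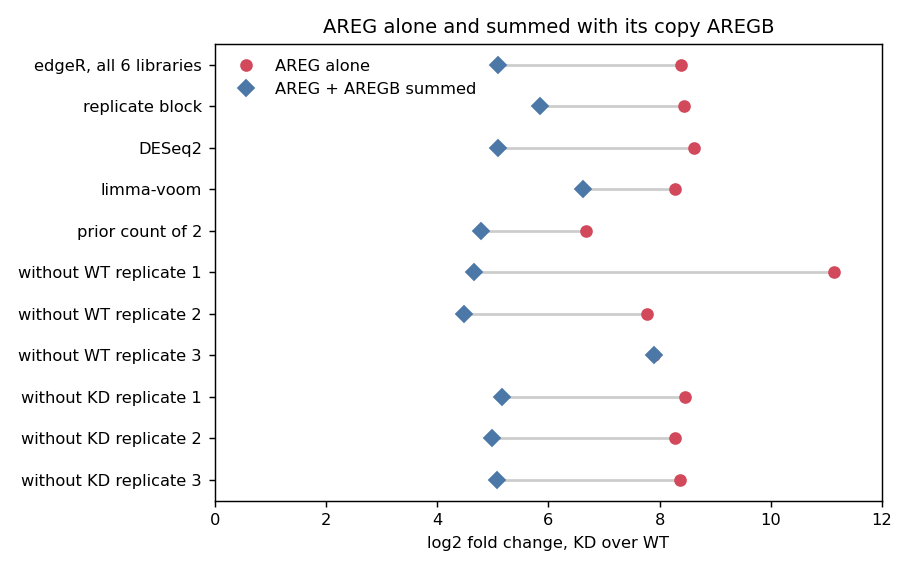
Fitted log2 fold change of AREG, KD over WT, on the horizontal axis, for AREG alone (circles) and for AREG and AREGB summed (diamonds) under each setting. The summed value lay between 4.48 and 7.90, below AREG alone in every setting but the one without WT replicate 3, where both were 7.90.

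HBEGF, a ligand that also binds heparan sulfate and in its membrane-bound form serves as the diphtheria toxin receptor, was higher in each KD library. It had 8.87, 10.7 and 15.1 CPM in WT and 38.4, 43.0 and 35.1 CPM in KD. The means were 11.6 ± 3.23 CPM in WT against 38.8 ± 3.98 CPM in KD (SD, n = 3 each), a 3.36-fold difference of the means. The groups did not overlap, and the highest WT library had less than the lowest KD library. The log2 fold change was 1.75 (SE 0.26) and 1.78 with the replicate block. Unlike AREG, HBEGF rested on 238 or more counts in every library. Its gene is at chr5:139712428-139726188 on the minus strand (GRCh37, as for all genes below).

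The other ligands with enough reads had WT and KD libraries that overlapped. TGFA (chr2:70674416-70781325, minus strand), an EGFR ligand common in epithelia, had 1.12, 6.15 and 2.73 CPM in WT and 3.17, 7.31 and 6.15 CPM in KD. In both conditions replicate 1 was the lowest and replicate 2 the highest, and each KD library lay above the WT library of the same number. The log2 fold change of TGFA was 0.73 (SE 0.64) and 0.96 with the block. EREG (chr4:75230862-75254466, plus strand), the neighbour of AREG, whose product binds EGFR and ERBB4, had 0.830, 0.552 and 0.939 CPM in WT and 0.0308, 0.745 and 1.93 CPM in KD. The KD libraries of EREG thus held both the lowest and the highest value, and KD replicate 1 was below the floor of 3 counts. Its log2 fold change was 0.22 (SE 1.36) and changed sign to −0.57 with the block.

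BTC and NRG1 were near the limit of detection. BTC (chr4:75669969-75719733, minus strand) had 6, 0 and 0 counts in WT and 36, 0 and 0 in KD, so all its reads came from replicate 1 of each condition, and it was not tested. NRG1, whose product activates ERBB3 and ERBB4, had 5, 30 and 50 counts in WT and 0, 12 and 31 in KD. In both conditions NRG1 was lowest in replicate 1 and highest in replicate 3, and each KD library was below the WT library of the same number, with a log2 fold change of −1.08 (SE 1.603) and −1.80 with the block. The lincRNA RP11-1002K11.1 overlaps NRG1 on the same strand, with 0, 41 and 14 counts in WT and 0, 0 and 15 in KD, so reads in the shared stretch were divided by estimate.

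The WT and KD libraries overlapped for both receptors. EGFR (chr7:55086710-55279321, plus strand), the receptor for AREG, had 8.01, 17.8 and 17.8 CPM in WT and 11.8, 14.04 and 15.5 CPM in KD. All KD libraries fell within the range of the WT libraries, and the log2 fold change was −0.08 (SE 0.35), or 0.00 with the block. ERBB2 (chr17:37844167-37886679, plus strand), the co-receptor without a known ligand, had 56.6, 81.1 and 63.1 CPM in WT and 54.5, 59.8 and 59.6 CPM in KD. KD replicate 1 was the lowest and WT replicate 2 the highest, with a log2 fold change of −0.21 (SE 0.20). MIEN1 and PGAP3 overlap ERBB2 on the opposite strand, and the strand setting of the counting is not given in the sources used here.

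Counted over the members, 2 of the 7 tested, AREG and HBEGF, had an adjusted p under 0.05, both higher in KD and both also with the block. Over all tested genes the share was 2.59% and with the block 9.52%. The libraries did not overlap for these 2 members, as for 22.3% of all tested genes. Since the members were chosen on this comparison, nothing is read from these counts. Log2 fold changes were above 0 for 4 members and below 0 for 3, with a median of 0.22 beside −0.03 over all tested genes. HBEGF missed the threshold without WT replicate 2 or KD replicate 2. With both copies summed, AREG passed with all 6 libraries but in only 3 of 9 alternative fits.

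**Figure D2:**
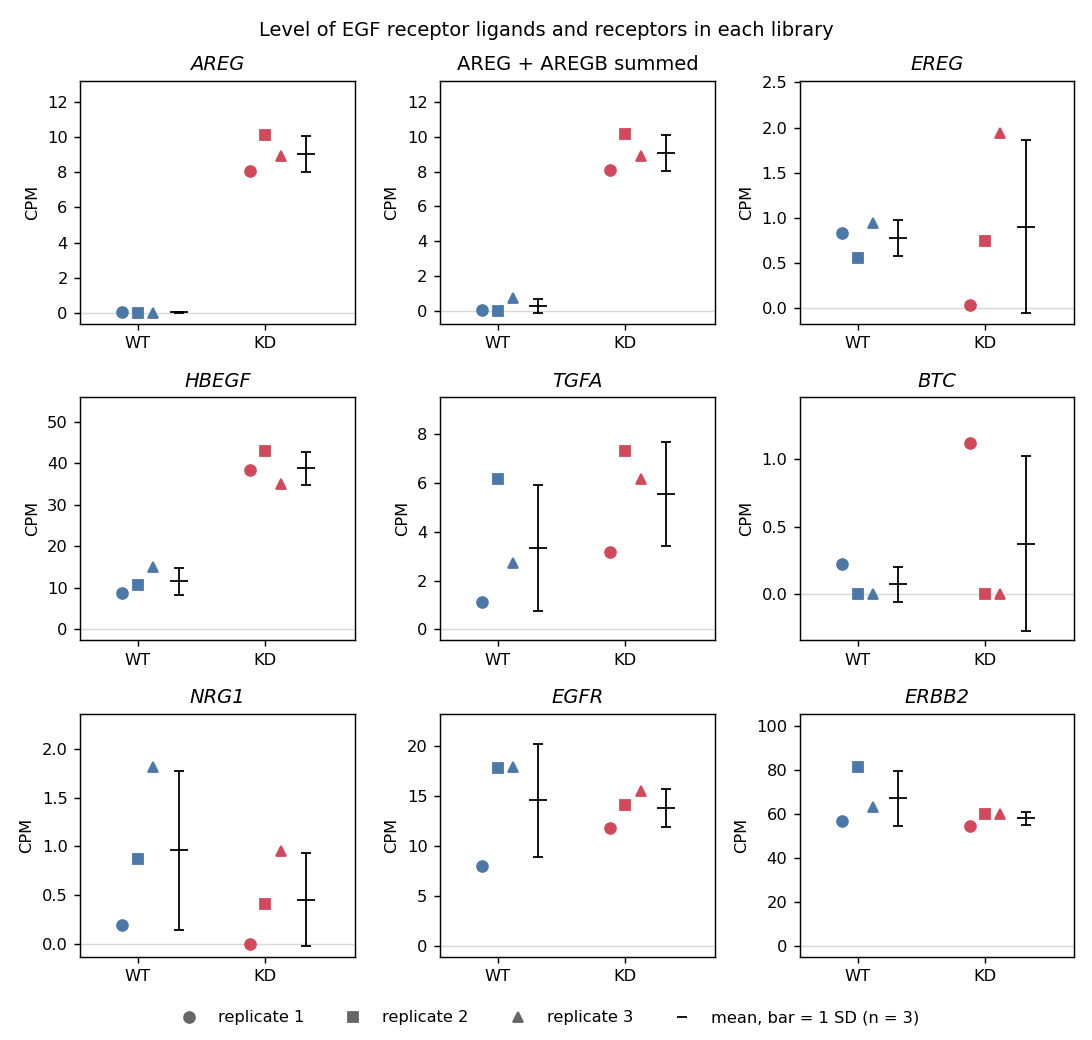
Level in CPM (vertical axes, linear, a scale for each gene) of the 8 genes and of AREG and AREGB summed, in the WT (blue) and KD (red) libraries; symbols mark the replicate number and the black bars the mean with 1 SD, n = 3. AREG and HBEGF have no overlap between WT and KD. TGFA, NRG1, EGFR and ERBB2 keep the order of the replicates in both conditions, and BTC is above 0 only in replicate 1.

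Per length of the canonical transcript, the order of the genes changed between the conditions. In WT the mean levels in CPM per kb were 14.7 for ERBB2, 4.90 for HBEGF, 1.47 for EGFR, 0.809 for TGFA and 0.168 for EREG. The remaining WT means were 0.0800 CPM per kb for NRG1, 0.0281 for BTC and 0.0210 for AREG, and the WT libraries of these 3 overlapped among themselves. EGFR and TGFA overlapped in WT, as did EREG and NRG1. In KD HBEGF stood at 16.5 ± 1.69 CPM per kb and ERBB2 at 12.7 ± 0.654 (SD, n = 3 each), without overlap. AREG followed with 7.33 ± 0.841 CPM per kb (SD, n = 3), above EGFR at 1.39 and TGFA at 1.35, 2 neighbours in the order whose KD libraries overlapped. With AREGB added, the WT libraries had 0.0604, 0 and 0.590 CPM per kb, a range that holds the libraries of EREG, so AREG was the lowest of the 8 in WT only by its own counts. In KD it was the third highest.

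Over the 11 EGF family ligands, EGF, EPGN, NRG2, NRG3 and NRG4 included, the summed level in CPM per kb was 6.48, 9.31 and 11.02 in the WT libraries and 27.1, 32.3 and 28.6 in the KD libraries. HBEGF made up 58.0%, 48.6% and 58.3% of this sum in WT and 60.2%, 56.4% and 52.0% in KD, so it led in every library. AREG with AREGB made up 0.932%, 0% and 5.36% in WT and 24.2%, 25.4% and 25.2% in KD. HBEGF and AREG, chosen on this comparison, made up most of the difference between the sums.

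**Figure D3:**
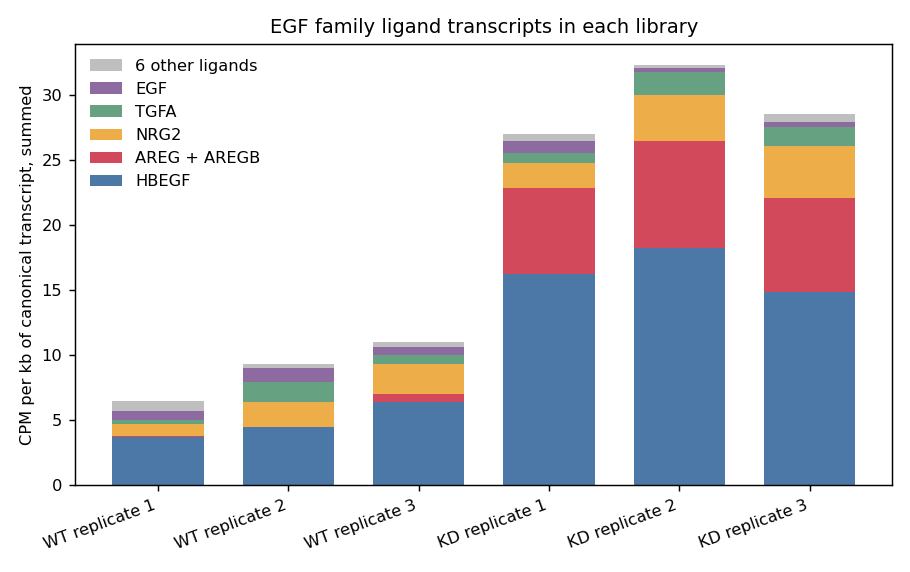
Summed level of 11 EGF family ligand transcripts in CPM per kb of canonical transcript (vertical axis, from 0) in each of the 6 libraries, split by ligand in colours, with AREGB added to AREG. The WT sums run from 6.48 to 11.02 and the KD sums from 27.1 to 32.3; HBEGF is the largest share in each library and AREG a visible share in the 3 KD libraries.

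The other genes of the pathway, none of them a member, were taken from the same fit. This list and those below were chosen with earlier results of these data known. Their shares of passing genes are therefore a description and are not offered as a test. Of 95 genes from ligands to ERK-induced genes, 91 were tested, and 4 were higher and 0 lower in KD (4.4%, beside 2.59% of all genes), or 15 higher and 2 lower with the replicate block (18.7%, beside 9.52%). Their median log2 fold change was 0.08, beside −0.03 over all genes. Without WT replicate 3 or KD replicate 2 only 1 of the list passed, and without KD replicate 3 only 2.

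Among the other ligands and receptors, 0 of the 2 ligands and 0 of the 2 receptors tested passed in edgeR, with the block or without it, 0 had an unadjusted p under 0.05, and 0 passed in DESeq2 or limma-voom. NRG2, a neuregulin of ERBB3 and ERBB4, had the largest change, with 3.58, 7.51 and 9.14 CPM in WT and 7.62, 14.04 and 15.7 CPM in KD (log2 fold change 0.89, SE 0.43, edgeR adjusted p = 0.391). Each KD library lay above the WT library of the same number, while the groups overlapped. ERBB3, the partner of ERBB2 in melanocytic cells, had 253.5 ± 56.4 CPM in WT against 223.8 ± 25.4 CPM in KD (SD, n = 3 each; log2 fold change −0.18, SE 0.22). EPGN was at 0 in every library and ERBB4 below 1 CPM in each, so of the receptors that bind these ligands directly EGFR and ERBB3 were the ones well detected.

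In the machinery that releases the ligands, 1 of 12 genes tested passed (8.33%, beside 2.59% of all genes). With the block 2 did (16.7%, beside 9.52%), ADAM9 and RHBDF2. RHBDF2, an inactive rhomboid protein that escorts ADAM17, had 106.3 ± 29.5 CPM in WT against 160.5 ± 34.4 CPM in KD (SD, n = 3 each; edgeR adjusted p = 0.301, and 0.0259 with the block). ADAM9, a membrane metalloprotease, had 81.6, 67.5 and 58.6 CPM in WT and 150.1, 173.9 and 142.5 CPM in KD, with no overlap (log2 fold change 1.17, SE 0.20, edgeR adjusted p = 0.0156). It missed the threshold without replicate 2 or 3 of either condition, with an edgeR adjusted p of up to 0.0981. ADAM17, the main sheddase of AREG and chosen here after its values were seen, had 33.3, 23.1 and 20.5 CPM in WT and 50.3, 30.4 and 37.8 CPM in KD (log2 fold change 0.62, SE 0.27, edgeR adjusted p = 0.327).

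The steps next to the receptor and those that switch it off had no gene past the threshold in edgeR. Of the 26 tested signalling genes 0 passed in edgeR, 5 had an unadjusted p under 0.05, and 1 passed in DESeq2 and 0 in limma-voom. With the block 3 passed (11.5%, beside 9.52% of all genes). GAB1, a docking protein below EGFR, had the largest change, with 10.6 ± 3.22 CPM in WT against 3.46 ± 1.89 CPM in KD (SD, n = 3 each; log2 fold change −1.61, SE 0.48, edgeR adjusted p = 0.133, and 0.0479 with the block). Of the 21 tested genes of inhibition and turnover 0 passed in edgeR, DESeq2 or limma-voom, and 3 had an unadjusted edgeR p under 0.05. With the block 1 passed, ERRFI1 (4.76%, beside 9.52% of all genes). ERRFI1 (also MIG6), an inhibitor that binds the EGFR kinase and is itself induced by EGF, had 48.3, 111.1 and 96.8 CPM in WT and 87.2, 210.8 and 168.3 CPM in KD. The replicates kept their order in both conditions (log2 fold change 0.86, SE 0.37, edgeR adjusted p = 0.317, and 0.00469 with the block).

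Of the genes that ERK signalling is known to induce, some were higher in KD. Of the 8 feedback genes 1 passed, SPRY1 (12.5%, beside 2.59% of all genes), and 4 did with the block (50%, beside 9.52%), all higher. SPRY1, a Sprouty protein that dampens receptor signalling to RAS, had 3.20, 7.28 and 4.59 CPM in WT and 17.9, 34.5 and 22.7 CPM in KD (log2 fold change 2.31, SE 0.39, edgeR adjusted p = 0.0150). Of the 20 ERK-induced genes 2 passed (10%, beside 2.59%), both higher, and 7 did with the block (35%, beside 9.52%), all higher. EGR1, an immediate early transcription factor, had 11.3, 35.2 and 13.3 CPM in WT and 105.7, 161.3 and 91.6 CPM in KD (log2 fold change 2.58, SE 0.44, edgeR adjusted p = 0.0150). VGF, a secreted neuropeptide precursor named for its induction by nerve growth factor, had 103.1, 86.5 and 90.3 CPM in WT and 661.2, 367.5 and 466.8 CPM in KD (log2 fold change 2.42, SE 0.25, edgeR adjusted p = 0.00104). VGF passed with each library left out in turn, while SPRY1 and EGR1 missed without WT replicate 3 or KD replicate 2, and SPRY1 also without KD replicate 3.

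AREG is known as a target of YAP with TEAD factors and of cAMP through CREB, and genes of both programmes were counted apart. Of 21 tested YAP and TEAD targets 2 passed, both higher (9.52%, beside 2.59% of all genes). With the block 2 passed as well, 9.52% of the list and 9.52% of all genes. GADD45A, a growth arrest gene with many other inducers, had 26.6, 26.6 and 24.8 CPM in WT and 195.8, 262.3 and 204.3 CPM in KD (log2 fold change 3.09, SE 0.20, edgeR adjusted p = 5.21e-05). NT5E, the ectoenzyme CD73, had 37.1 ± 10.2 CPM in WT against 80.1 ± 7.39 CPM in KD (SD, n = 3 each; log2 fold change 1.11, SE 0.24, edgeR adjusted p = 0.0460), and it passed in 1 of the 6 fits that leave out a library. CTGF, a widely used readout of YAP chosen here after its values were seen, had 4.10, 13.5 and 10.8 CPM in WT and 2.89, 14.3 and 18.7 CPM in KD, which overlapped. Of 13 cAMP and CREB targets 0 passed in edgeR, 4 had an unadjusted p under 0.05, 2 passed in DESeq2 and 0 in limma-voom. With the block 2 passed (15.4%, beside 9.52% of all genes), PER1 and PDE4B, both higher and named after their values were seen. The largest change was that of PPARGC1A, a regulator of mitochondrial genes, with 7.27, 1.39 and 1.82 CPM in WT and 1.24, 1.59 and 1.19 CPM in KD (log2 fold change −1.38, SE 0.77, edgeR adjusted p = 0.471).

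**Figure D4:**
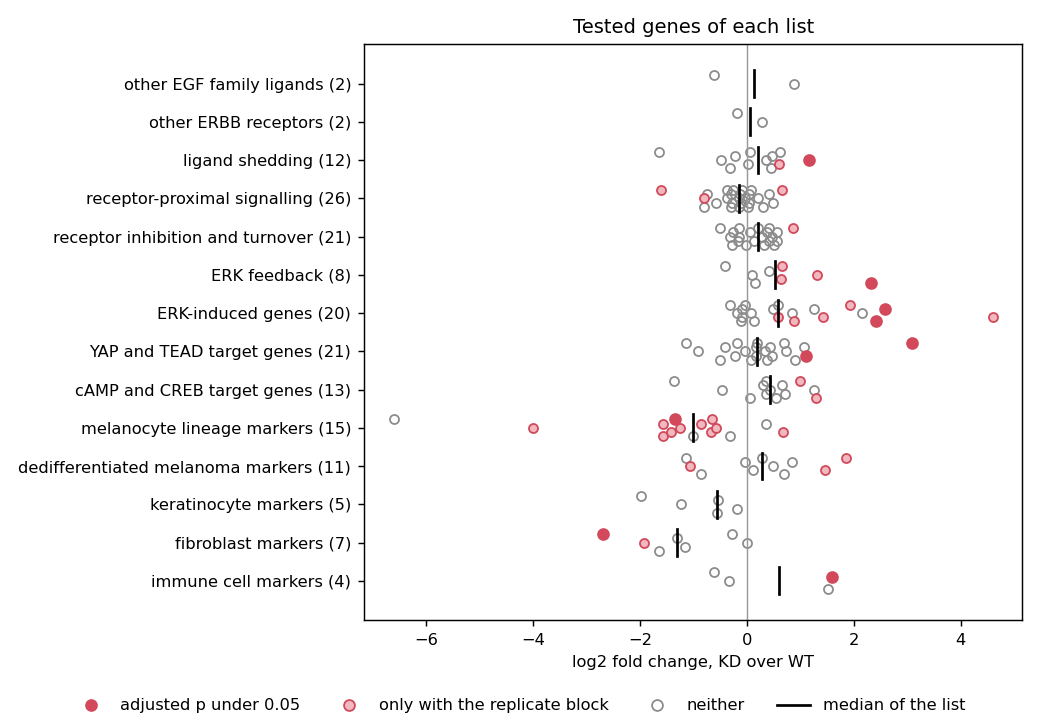
Log2 fold change of each tested gene, KD over WT, on the horizontal axis, by list, with the number tested in parentheses; filled points had an edgeR adjusted p under 0.05, pale points only with the replicate block, and the black line marks the list's median. The filled points of the ligand shedding, ERK feedback, ERK-induced and YAP lists are higher in KD, and the melanocyte list has a median of −1.01.

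Markers of cell state and of other cells were counted in the same fit. Of 15 melanocyte lineage markers 1 passed, S100B (6.67%, beside 2.59% of all genes). In edgeR 7 had an unadjusted p under 0.05, and 5 passed in DESeq2 and 1 in limma-voom. S100B fell from 117.3 ± 23.8 to 45.9 ± 4.50 CPM (SD, n = 3 each), with a log2 fold change of −1.35 (SE 0.21, edgeR adjusted p = 0.00949). With the block 10 fell and 1 rose (73.3%, beside 9.52% of all genes). S100B missed the threshold without KD replicate 2 or 3, with an edgeR adjusted p of up to 0.0865. Replicate 1 stood apart in both conditions, with PMEL at 3370 CPM beside 661.7 and 683.5 in WT and 1254 beside 357.7 and 364.3 in KD. AXL, a receptor kinase of dedifferentiated melanoma cells, had 6.06 CPM in replicate 1 beside 123.3 and 132.3 in WT, and 7.13 beside 65.4 and 72.4 in KD. Both were chosen after their values were seen. Of 11 markers of dedifferentiated melanoma 0 passed in edgeR, DESeq2 or limma-voom and 2 had an unadjusted p under 0.05 in edgeR, with a median log2 fold change of 0.29 for the list. Their part in the AREG and HBEGF values was not tested.

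Keratinocytes are a known source of AREG. Of 10 keratinocyte markers 5 were tested, and 0 passed in edgeR, DESeq2 or limma-voom, with 0 at an unadjusted p under 0.05. KRT5 was at 0 in the 3 KD libraries and KRT1 in all 6, while KRT10 (17.2 to 40.6 CPM) and KRT16 (3.99 to 29.9 CPM) were detected in all 6 and made up most of the sum. The summed level was 32.9 to 77.2 CPM in WT and 27.4 to 47.6 CPM in KD. The largest change was that of KRT14, with 2.66 ± 2.08 CPM in WT against 0.672 ± 0.262 CPM in KD (SD, n = 3 each; log2 fold change −1.99, SE 1.03, edgeR adjusted p = 0.431). Of 7 tested fibroblast markers 1 passed, FAP (14.3%, beside 2.59% of all genes). FAP had 8.20 ± 2.63 CPM in WT against 1.26 ± 0.653 CPM in KD (SD, n = 3 each; log2 fold change −2.70, SE 0.56, edgeR adjusted p = 0.0376). It passed in 0 of the 6 fits that leave out a library and did not pass in limma-voom. With the block COL1A1 passed as well (28.6% of the list, beside 9.52% of all genes), with 48.6 ± 42.02 CPM in WT against 12.8 ± 9.93 CPM in KD (SD, n = 3 each; edgeR adjusted p = 0.00232). The fibroblast sum was 19.7 to 109.6 CPM in WT and 6.84 to 30.6 CPM in KD. Of 4 tested immune markers 1 passed, CD68, with the block or without it (25%, beside 9.52% and 2.59% of all genes). CD68, a lysosomal protein that many cells make, had 33.5 ± 7.25 CPM in WT against 100.9 ± 21.2 CPM in KD (SD, n = 3 each; log2 fold change 1.59, SE 0.24, edgeR adjusted p = 0.00855). The immune sum was 41.8 to 58.9 CPM in WT and 103.7 to 135.7 CPM in KD, and CD68 made up most of it in each library. Of the 10 immune markers, CD3E, CD3D, MS4A1 and LST1 were at 0 in all 6 libraries, and PTPRC was at 0 but for 16 counts in WT replicate 3. CD79A had 2, 23 and 10 counts in WT and 0, 0 and 10 in KD. LYZ had 0.473 to 0.875 CPM in WT and 1.97 to 2.17 CPM in KD, without overlap. The remaining tested immune markers, NCAM1 and CD14, had log2 fold changes below 0. NCAM1 had 14.4 ± 3.38 CPM in WT against 11.4 ± 2.81 CPM in KD (SD, n = 3 each; log2 fold change −0.34, SE 0.32). CD14 was below 1 CPM in every library (log2 fold change −0.62, SE 1.62).

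AREG lies in a cluster with EREG, EPGN and BTC, beside the chemokine genes of the CXCL family. Within 1 Mb of AREG, 42 other genes were listed, AREGB left out, of which 17 are protein coding. Of these 42, 31 were at 0 in all libraries and 5 were tested, and 0 passed in edgeR, with the block or without it, or in DESeq2 or limma-voom, while 1 had an unadjusted p under 0.05 in edgeR. Their log2 fold changes ran from −1.39 to 2.15, with a median of 0.22. The tested neighbours were IL8, CXCL1, CXCL5, MTHFD2L and EREG, and the first 4 are named after their values were seen. IL8, the neutrophil chemokine, had 0.186, 3.19 and 1.27 CPM in WT and 11.02, 6.02 and 3.79 CPM in KD, without overlap (log2 fold change 2.15, SE 0.85, edgeR adjusted p = 0.269). It passed in the edgeR fit without a filter on low counts, the 1 neighbour to do so in any fit. MTHFD2L, the best detected neighbour in WT, had 3.58, 4.003 and 5.68 CPM in WT and 2.86, 2.47 and 1.29 CPM in KD (log2 fold change −1.001, SE 0.54, edgeR adjusted p = 0.452). The log2 fold change of IL8 was larger than that of HBEGF and was not called, at a larger standard error.

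**Figure D5:**
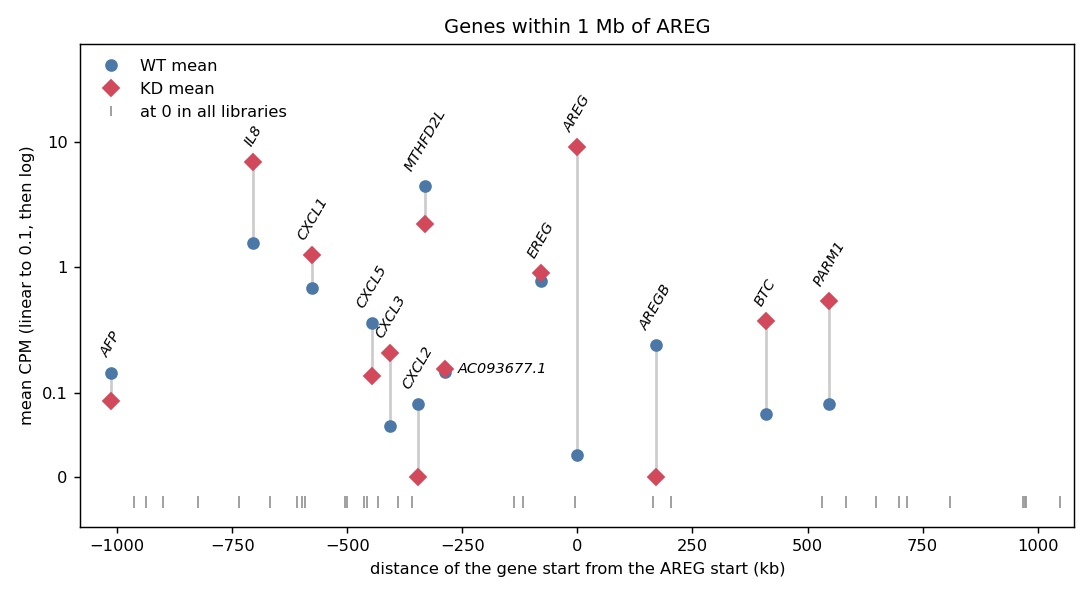
Mean level in CPM (vertical axis, linear up to 0.1 and logarithmic above) of the genes within 1 Mb of AREG by the distance of their start from the AREG start in kb (horizontal axis), in WT (circles) and KD (diamonds), with grey ticks for genes at 0 in all libraries. AREG has the widest gap between the conditions, and most of the genes around it are at 0.

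The genes whose pattern was most like that of AREG were found by Pearson correlation of log2(CPM + 0.1) over the 6 libraries, among 13534 tested genes with a mean of at least 1 CPM. Those reported here are TMEM171 (r = 0.997), MIEF1 (r = 0.997), METRNL (r = 0.997) and WARS (r = 0.996). WARS, the cytosolic tryptophan tRNA synthetase, had 313.0, 261.3 and 229.1 CPM in WT and 832.5, 951.6 and 942.0 CPM in KD. MIEF1 had 99.9, 95.8 and 95.7 CPM in WT and 136.0, 145.5 and 142.0 CPM in KD, so a like pattern did not mean a like size. With 6 libraries in 2 groups such values mostly say that a gene separates KD from WT, and 260 genes had an r of at least 0.95. They were computed with AREG alone, whose WT values all lay below the floor of 3 counts. In WT replicate 3 AREG alone had 0.00328 CPM, while the sum with AREGB had 0.728 CPM. The r values and ranks thus depend on how reads were split between the copies, and the order within WT rests on few reads. HBEGF had an r of 0.948 with AREG and ranked 271, TGFA had 0.47, EGFR −0.07 and ERBB2 −0.56.

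The 250 bases before the transcription start of AREG and HBEGF are shown, since these were the members that were higher in KD, from RefSeq on GRCh38.p14, 5′ to 3′ on the strand of the gene. AREG is at chr4:74444886-74445135 on the plus strand and HBEGF at chr5:140346604-140346853 on the minus strand. Capitals mark a CRE (TGACGTCA) and a TATA box (TATAAA).
AREG: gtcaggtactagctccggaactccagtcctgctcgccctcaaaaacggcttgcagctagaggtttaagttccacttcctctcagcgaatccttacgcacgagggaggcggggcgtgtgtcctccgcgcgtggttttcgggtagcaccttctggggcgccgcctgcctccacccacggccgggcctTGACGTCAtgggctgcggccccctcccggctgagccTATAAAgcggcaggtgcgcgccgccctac
HBEGF: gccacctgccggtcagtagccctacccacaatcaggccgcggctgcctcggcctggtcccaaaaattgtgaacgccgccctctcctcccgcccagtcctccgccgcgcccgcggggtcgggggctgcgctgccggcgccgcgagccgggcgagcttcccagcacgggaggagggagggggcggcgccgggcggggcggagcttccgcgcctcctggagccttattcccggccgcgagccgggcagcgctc
The AREG window held 1 CRE, 65 bases before the start, and 1 TATA box, 29 bases before it. Motifs were searched on both strands in 35116 RefSeq promoters of this length, of which 1.65% held the CRE letters and 10.7% the TATA letters. The letters TGANTCA of AP-1 were in 6.57% of promoters, GGAATG of TEAD in 11.9% and the core of the interferon-stimulated response element in 3.02%, and none of these 3 was in the AREG window. The HBEGF window held none of the 5, with 76.4% G and C beside 65.2% for AREG. EREG had a TATA box 32 bases before its start and 1 match to the TEAD letters. A match is a description of letters, not of binding.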

How the data were processed

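Polyadenylated RNA of 6 libraries of M14 cells was read as single 50-base reads from directional libraries. The authors aligned to hg19 with STAR and deposited expected counts per gene from RSEM, which divides reads that match several genes; the annotation release and strand setting are not given in the sources used here. Expected counts were rounded, genes were filtered with filterByExpr, libraries were scaled by TMM, and the conditions were compared in R 4.3.3 with the quasi-likelihood test of edgeR 4.0.16, with Benjamini-Hochberg adjustment over 15605 genes and a threshold of 0.05. The SE of a log2 fold change was its absolute value divided by the square root of the F statistic of the quasi-likelihood test. CPM used the scaled library sizes, and CPM per kb the canonical transcript length of the GENCODE annotation on GRCh37. Alternatives were a replicate block, DESeq2 1.42.0, limma-voom (limma 3.58.1), upper-quartile scaling, no filter, a prior count of 2, a threshold of 0.01, leaving out each library, and summing AREG and AREGB; the alternatives on the summed copies other than the sum itself were chosen after seeing the data. The fits were also run on counts simulated from the dispersions of these data, with no replicate effect. The fold changes set there were smaller than that of AREG, so a change of that size was not covered. Deviations of same-numbered libraries from their group means correlated across 8932 genes with r of 0.565, 0.453 and 0.356. For libraries of unlike number r ran from −0.525 to 0.275, with 0.275 for WT replicate 2 and KD replicate 3. It was 0.149 for WT replicate 3 and KD replicate 2. The main fit had no pairing. Only the replicate block, an alternative, treated the numbers as pairs, although no source names a pairing. Totals of 24895998 to 35181733 counts put the floor of 3 counts at 0.0870 to 0.112 CPM.

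The members and the lists were chosen with earlier results of these data known, and the lists were written from general knowledge. The named genes are the 8 members, AREGB, STAG2, the genes of each list with an adjusted p under 0.05 (the 4 largest changes where more pass), the largest change at a mean of 1 CPM or more where none passes, neighbours within 1 Mb that pass, EPGN, and the 5 genes most like AREG. Genes outside this rule were picked with their values in view. The ratio of pooled counts has an exact binomial interval at 95%. Protein sequences and the promoter of NRG1 were not used here, and some results that this rule would name are not reported here.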

Additional observations from a re-analysis of the deposited data

How the results depend on the processing

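Over all genes, 404 passed the threshold, and 1486 did with the replicate block, 1000 with DESeq2, 1103 with no filter on low counts and 137 at an adjusted p under 0.01. When 1 library was dropped at a time, the count ran from 121 to 531. Of the pathway genes, 4 passed, and 17 did with the replicate block, 7 with DESeq2, 15 with no filter and 1 to 5 with a library left out. Of the AREG neighbours 0 passed with edgeR, DESeq2, limma-voom or any library left out, and 1, IL8, did with no filter. The log2 fold change of AREG alone was 6.68 with a prior count of 2, 5.09 with AREGB summed and between 7.78 and 11.14 with a library left out. The summed value was 6.63 with limma-voom and 4.48 to 7.90 with a library left out. The replicate block changed the call of none of the 7 tested members. The low counts of AREG in WT limit its fold change, and EREG and EGFR changed sign in 3 of 12 alternatives each, inside the spread of the libraries.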
